A study of Rattus norvegicus with 4 samples.

Results

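The genes described here move fatty acids into the heart muscle cell and burn them there. Membership was set by gene symbol alone, from a list of 38 genes of fatty acid uptake, activation, mitochondrial import, beta-oxidation and its control, and a gene was measured where a probe set of the rat array carried its symbol and no other. Of the 38 listed genes, 34 had such a probe set, among 4736 genes measured in all. Crat, Etfb, Acaa1a and Mlycd had none, and the symbol Acaa1a occurred only on a probe set shared with another gene. The 34 genes were covered by 60 probe sets, 17 of them by 2 or more, and for each gene the brightest probe set, by its average over the arrays, was used.

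Total RNA of the rat left ventricle was hybridised to 4 Affymetrix RG_U34A arrays, 1 for each group. The groups were terminal heart failure, dTGR treated with losartan (losartan-treated dTGR), untreated dTGR (dTGR) and Sprague Dawley control (SD control). A dTGR rat carries the human genes for renin and angiotensinogen and becomes hypertensive with an enlarged heart, and losartan blocks the angiotensin II type 1 receptor. The label of the terminal sample names no genotype, and every sample, SD control included, carries the same description of the transgenic rat. The sources used here do not give the promoters of the transgenes, age, dose, duration of treatment or the number of animals behind an array. With 1 array per group there is no spread between replicates, so no test or p-value is given, and every difference is that of 1 array from another.

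The adult heart draws most of its energy from long-chain fatty acids. They are released from lipoproteins at the vessel wall, taken up, bound to a carrier protein in the cytosol and joined to coenzyme A. A carnitine shuttle takes them across the inner mitochondrial membrane, where beta-oxidation shortens the chain in repeated rounds of dehydrogenation, hydration, dehydrogenation and thiolytic cleavage. The receptor PPARalpha, paired with a retinoid X receptor, is the main activator of these genes, and a lower expression of the program is a known feature of the hypertrophied and failing heart.

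Of the 34 genes, 32 lay above the floor of 26.0 intensity units on at least 1 array and 29 on all 4 arrays. The floor is the 40th percentile of all values, and lower values were treated as the floor. Ehhadh and Acot1 stayed under it on every array and are not described further. All 11 measured cardiomyocyte markers lay above the floor on every array, while 3 of 7 skeletal muscle markers (Myh2, Myh4 and Tnni2) and the liver marker Alb lay under it throughout. The arrays were not run alike. The dTGR and SD control arrays came from 1 chip lot and the other 2 arrays from another. Terminal heart failure was hybridised on a separate day, and dTGR alone went through a different fluidics protocol. The ratio of 3' to 5' signal for Gapdh, a sign of RNA integrity, was 1.28 for terminal heart failure, 2.17 for losartan-treated dTGR, 1.73 for dTGR and 1.34 for SD control. The 100 most intense probe sets held 31.8% of the signal in terminal heart failure, 36.9% in losartan-treated dTGR, 46.3% in dTGR and 32.9% in SD control. The part of these differences in the results below was not tested.

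Many, but not all, enzymes of beta-oxidation and of mitochondrial import were lower in terminal heart failure and in dTGR than in losartan-treated dTGR and SD control, most of them by less than 2-fold. Acads, Acadsb, Cpt1a and Hadh did not share this order, and Hadha did so by no more than 1.09-fold. Others met the order by a small gap on 1 side. In dTGR against SD control it was 1.03-fold for Acadl, 1.07-fold for Acadvl and Etfa and 1.12-fold for Slc25a20. Eci1 was 1.04-fold lower in terminal heart failure than in losartan-treated dTGR. Gaps this small lie within the spread between probe sets of 1 gene, given below. In RNA of whole ventricle, fewer cardiomyocytes and less RNA per cardiomyocyte cannot be told apart. Of the 29 genes above the floor on all arrays, 15 were lower on both untreated disease arrays (terminal heart failure and dTGR) than on both others (losartan-treated dTGR and SD control). The same order held for 24.3% of all 2584 genes above the floor on all arrays. Higher on both untreated disease arrays were 3 of the 29 genes, against 13.6% of all genes. With genes above the floor on at least 1 array, the counts were 17 and 3 of 32, against 20.3% and 12.5% of 3806 genes. Of those 17, Acsl3 and Acsl6 were under the floor on the dTGR array. Among the 25 genes at or above the lower quartile of their own intensities, 15 were lower on both untreated disease arrays, against 26.4% of all genes that bright.

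By role, the order held for 5 of 7 acyl-CoA dehydrogenases and electron transfer proteins, for 4 of 5 enzymes of the later steps, for 3 of 4 members of the carnitine shuttle, for both accessory enzymes and for 3 of 4 acyl-CoA synthetases. It held for 0 of 4 uptake and storage genes, 0 of 3 thioesterase and uncoupling protein genes and 0 of 2 ketone body genes. These counts rest on the probe set used for each gene. Some further probe sets, given below, differ in this order, as for Lpl, Eci1 and Etfdh. For the 17 genes, the median log2 difference from SD control was -0.51 in terminal heart failure, 0.02 in losartan-treated dTGR and -0.47 in dTGR. The genes were picked for this order, so these medians describe its size and support nothing further.

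**Figure D1:**
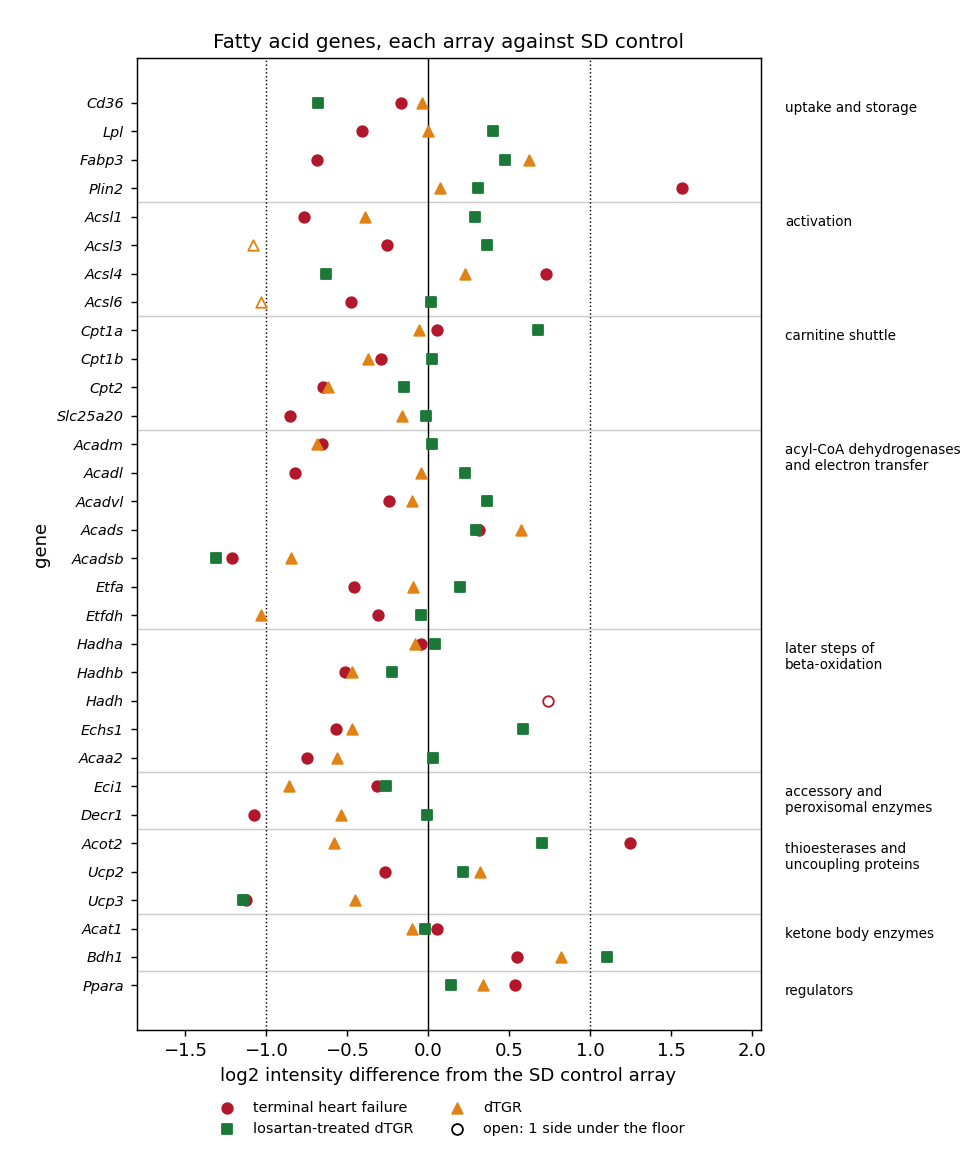
Log2 intensity difference of 32 genes from the SD control array (horizontal axis), grouped by role, for terminal heart failure (circles), losartan-treated dTGR (squares) and dTGR (triangles), 1 array each. Open symbols mark differences with 1 side under the floor, dotted lines mark 2-fold, and most enzymes of import and beta-oxidation have the circle and the triangle left of the square.

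Promoter sequence in RefSeq on the build GRCr8 (250 bases before to 50 after the start site) matched 29 of the 34 genes and was not matched for Lpl, Cpt1b, Acadl, Acaa2 and Decr1. The letters AGGTCA, the core motif to which PPARalpha and other nuclear receptors bind, were searched on both strands. They stood in the windows of Acadvl, Echs1, Eci1, Hadhb and Ucp3, which is 17.2% of the 29 genes, against 16.2% of all 33469 windows. A longer form, 2 copies of AGGTCA with any 1 base between them, stood in 0 of the 29 and in 0.0538% of all windows. TNAAGGTCA, an extended motif of orphan receptors that contains AGGTCA, stood in 0 of the 29 and in 1.2% of all windows. The share with AGGTCA is near that of all windows. The 2 longer motifs are so rare over all windows that 0 of 29 is uninformative. A motif's presence or absence in this window says nothing of whether a factor binds. CCGCCC, the core letters of a GC box, stood in 19 of the 29 windows (65.5%), against 33.1% of all windows. All windows are not limited to genes on the array and were not matched to the members in intensity or base composition. The 4 windows printed here belong to genes that were lower on both untreated disease arrays and hold AGGTCA, in capitals below as AGGTCA or, read on the other strand, TGACCT.
Acadvl, chr10:55236656-55236955, minus strand: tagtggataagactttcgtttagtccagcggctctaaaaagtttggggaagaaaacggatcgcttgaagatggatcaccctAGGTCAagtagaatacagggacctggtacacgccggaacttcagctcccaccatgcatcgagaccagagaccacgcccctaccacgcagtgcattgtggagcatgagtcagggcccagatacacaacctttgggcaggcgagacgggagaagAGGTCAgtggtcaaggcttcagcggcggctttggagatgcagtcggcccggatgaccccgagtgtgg
Echs1, chr1:204333457-204333756, minus strand: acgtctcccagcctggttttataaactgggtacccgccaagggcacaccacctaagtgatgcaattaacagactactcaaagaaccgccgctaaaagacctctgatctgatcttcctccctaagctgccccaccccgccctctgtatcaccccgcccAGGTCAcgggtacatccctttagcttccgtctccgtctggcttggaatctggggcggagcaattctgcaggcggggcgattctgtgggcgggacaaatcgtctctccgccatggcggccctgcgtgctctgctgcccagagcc
Hadhb, chr6:31907451-31907750, minus strand: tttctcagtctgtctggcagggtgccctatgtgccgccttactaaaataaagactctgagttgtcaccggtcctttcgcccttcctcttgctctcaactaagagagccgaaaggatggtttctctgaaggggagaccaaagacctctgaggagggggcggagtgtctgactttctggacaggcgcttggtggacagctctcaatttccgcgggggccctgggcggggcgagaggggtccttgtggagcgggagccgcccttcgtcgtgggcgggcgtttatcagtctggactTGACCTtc
Eci1, chr10:13961000-13961299, plus strand: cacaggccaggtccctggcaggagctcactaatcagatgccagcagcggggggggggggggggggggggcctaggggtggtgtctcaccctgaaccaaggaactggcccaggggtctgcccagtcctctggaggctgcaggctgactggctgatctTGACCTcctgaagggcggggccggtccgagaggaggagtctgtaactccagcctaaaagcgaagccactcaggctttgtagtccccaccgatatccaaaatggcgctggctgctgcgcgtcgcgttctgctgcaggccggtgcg

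In the window of Echs1 the motif began 93 bases before the start site, in that of Eci1 94 bases before it, and in that of Hadhb at base 43 after it. The window of Acadvl held it at 2 places, 169 and 17 bases before the start site. Hadha and Hadhb, which encode both subunits of the mitochondrial trifunctional protein, lie next to each other on chromosome 6 with 243 bases between the annotated genes and are read in opposite directions. The start sites used for their windows are 301 bases apart. The windows overlap by 200 bases, so the printed window of Hadhb also covers part of the promoter of Hadha. Ucp3 and Ucp2 on chromosome 1 and Acot2 and Acot1 on chromosome 6 are neighbours too, so the members are not all independent loci.

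The genes of uptake and storage went separate ways. Lpl, lipoprotein lipase, which frees fatty acids from circulating lipoproteins, had intensities of 4004 in terminal heart failure, 7014 in losartan-treated dTGR, 5332 in dTGR and 5325 in SD control. On this probe set, the values in dTGR and SD control were all but equal. The 2 further probe sets put terminal heart failure below SD control by 0.08 and 0.10 on the log2 scale, against 0.41 for the one used. They put dTGR below SD control by 0.16 and 0.31. On each of them, both untreated disease arrays lay below both other arrays. Cd36, the fatty acid translocase of the cell membrane, had 505.7 in terminal heart failure, 355.2 in losartan-treated dTGR, 553.8 in dTGR and 567.9 in SD control. The losartan array was its lowest, with a log2 difference of -0.68 from SD control, and a further probe set gave -1.15. Endothelial cells also carry Cd36, and the summed intensity of 5 endothelial markers was 477.4 in terminal heart failure, 465.0 in losartan-treated dTGR, 545.7 in dTGR and 371.7 in SD control. The single markers did not move together. Against SD control, Kdr was 2.03-fold lower in terminal heart failure and 2.22-fold higher in losartan-treated dTGR. Flt1 was 1.64-fold higher and 2.35-fold lower on these arrays, Pecam1 1.76-fold and 1.07-fold higher, and Icam2 1.15-fold higher and 1.12-fold lower. Vwf was above the floor in dTGR alone. The part of endothelial cells in the Cd36 values was not tested.

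Fabp3, the fatty acid binding protein of heart muscle, had 6187 in terminal heart failure, 13811 in losartan-treated dTGR, 15321 in dTGR and 9938 in SD control. It was 2.48-fold lower in terminal heart failure than in dTGR and 2.23-fold lower than in losartan-treated dTGR, and 1.61-fold lower than in SD control. After quantile normalization its log2 difference between terminal heart failure and dTGR was -0.74, short of 2-fold. Plin2, which coats lipid droplets and is made where fatty acids are stored, had 1293 in terminal heart failure, 538.8 in losartan-treated dTGR, 458.9 in dTGR and 435.9 in SD control. The terminal array stood alone, 2.97-fold above SD control, 2.82-fold above dTGR and 2.40-fold above losartan-treated dTGR, and the other 3 arrays lay within 1.24-fold of each other. A further probe set of Plin2 was under the floor on every array. Macrophages also make Plin2, and the summed intensity of 5 macrophage markers was 4051 in terminal heart failure, 1400 in losartan-treated dTGR, 2058 in dTGR and 1272 in SD control. Of these 5 markers, Lyz2 was 3.64-fold, C1qb 2.56-fold, Lgals3 4.47-fold and Cd14 1.82-fold higher in terminal heart failure than in SD control, and Csf1r was under the floor on every array. The part of macrophages in the Plin2 value was not tested.

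The acyl-CoA synthetases join fatty acids to coenzyme A. Acsl1, the main isoform of the heart, had 942.1 in terminal heart failure, 1957 in losartan-treated dTGR, 1221 in dTGR and 1603 in SD control. Both untreated disease arrays lay below both others, and all 4 probe sets put terminal heart failure below SD control, by 0.77 on the probe set used and by 0.94, 1.51 and 1.77 on the others (log2 scale). Against losartan-treated dTGR, Acsl1 was 2.08-fold lower in terminal heart failure. Acsl4, an isoform that prefers arachidonic acid, ran the other way, with 97.3 in terminal heart failure, 38.0 in losartan-treated dTGR, 68.9 in dTGR and 58.9 in SD control. It was 2.56-fold higher in terminal heart failure than in losartan-treated dTGR, with a log2 difference of 0.70 on a further probe set. Acsl3 had 46.2 in terminal heart failure, 70.6 in losartan-treated dTGR, 8.01 in dTGR and 55.0 in SD control. Acsl6, an isoform known from brain, had 38.2 in terminal heart failure, 53.8 in losartan-treated dTGR, 13.0 in dTGR and 53.1 in SD control. Each was under the floor in dTGR, which makes it at least 2.12-fold (Acsl3) and at least 2.04-fold (Acsl6) lower there than in SD control. A further probe set of Acsl3 went the other way in dTGR, with a log2 difference of at least 0.73 from SD control, which was under the floor.

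In the carnitine shuttle, both acyltransferases and the carrier of the heart were lower in terminal heart failure than in SD control. Cpt1b, the muscle form of the enzyme that commits fatty acids to import, had 2509 in terminal heart failure, 3121 in losartan-treated dTGR, 2373 in dTGR and 3075 in SD control. The further probe set of Cpt1b gave the same direction in terminal heart failure (-0.27) but not in dTGR (0.21). Cpt2, the partner enzyme at the inner membrane, had 1043 in terminal heart failure, 1472 in losartan-treated dTGR, 1063 in dTGR and 1634 in SD control, 1.57-fold lower in terminal heart failure and 1.54-fold lower in dTGR than in SD control. Cpt1a, the liver form, which the heart makes at a lower level in the adult, had 227.4 in terminal heart failure, 350.7 in losartan-treated dTGR, 211.3 in dTGR and 219.4 in SD control. Only the losartan array was high for Cpt1a, 1.60-fold above SD control and 1.66-fold above dTGR. The carrier gene Slc25a20 had a log2 difference from SD control of -0.85 in terminal heart failure and -0.16 in dTGR.

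The acyl-CoA dehydrogenases carry out the first step of each round, and each is named for the chain length it prefers. Acadl, the long-chain enzyme, had 2636 in terminal heart failure, 5458 in losartan-treated dTGR, 4521 in dTGR and 4662 in SD control. Terminal heart failure alone was low, 2.07-fold below losartan-treated dTGR and 1.77-fold below SD control, and dTGR and SD control differed by 1.03-fold. Acadm, the medium-chain enzyme and a classical target of PPARalpha, had 1537 in terminal heart failure, 2458 in losartan-treated dTGR, 1505 in dTGR and 2417 in SD control. Here the arrays formed 2 pairs, with the untreated disease arrays 1.57-fold (terminal heart failure) and 1.61-fold (dTGR) below SD control and the losartan array 1.02-fold above it. Acadvl, the very-long-chain enzyme, had 983.8 in terminal heart failure, 1498 in losartan-treated dTGR, 1088 in dTGR and 1164 in SD control, a smaller spread in the same order.

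Acads, the short-chain enzyme, did not share this order and was lowest in SD control, at 579.5 in terminal heart failure, 570.4 in losartan-treated dTGR, 693.4 in dTGR and 465.9 in SD control. Acadsb, which acts on short branched chains and belongs to isoleucine breakdown, had 33.2 in terminal heart failure, 31.1 in losartan-treated dTGR, 42.7 in dTGR and 76.8 in SD control. It was 2.31-fold lower in terminal heart failure and 2.47-fold lower in losartan-treated dTGR than in SD control, with the values of those arrays near the floor. Etfdh, which hands electrons from these dehydrogenases to ubiquinone, had 555.0 in terminal heart failure, 666.7 in losartan-treated dTGR, 337.5 in dTGR and 688.8 in SD control. It was 2.04-fold lower in dTGR than in SD control, and its further probe sets gave log2 differences of -0.09 and -2.85, so its size was not settled. On the first of these, losartan-treated dTGR was the lowest array, with a log2 difference of -0.92 from SD control and -0.83 from dTGR. The order over 4 arrays did not hold on that probe set. Etfa, a subunit of the flavoprotein that feeds Etfdh, had a log2 difference from SD control of -0.46 in terminal heart failure, 0.19 in losartan-treated dTGR and -0.09 in dTGR. A further probe set of Etfa gave -0.37 in terminal heart failure, 0.15 in losartan-treated dTGR and -1.16 in dTGR.

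**Figure D2:**
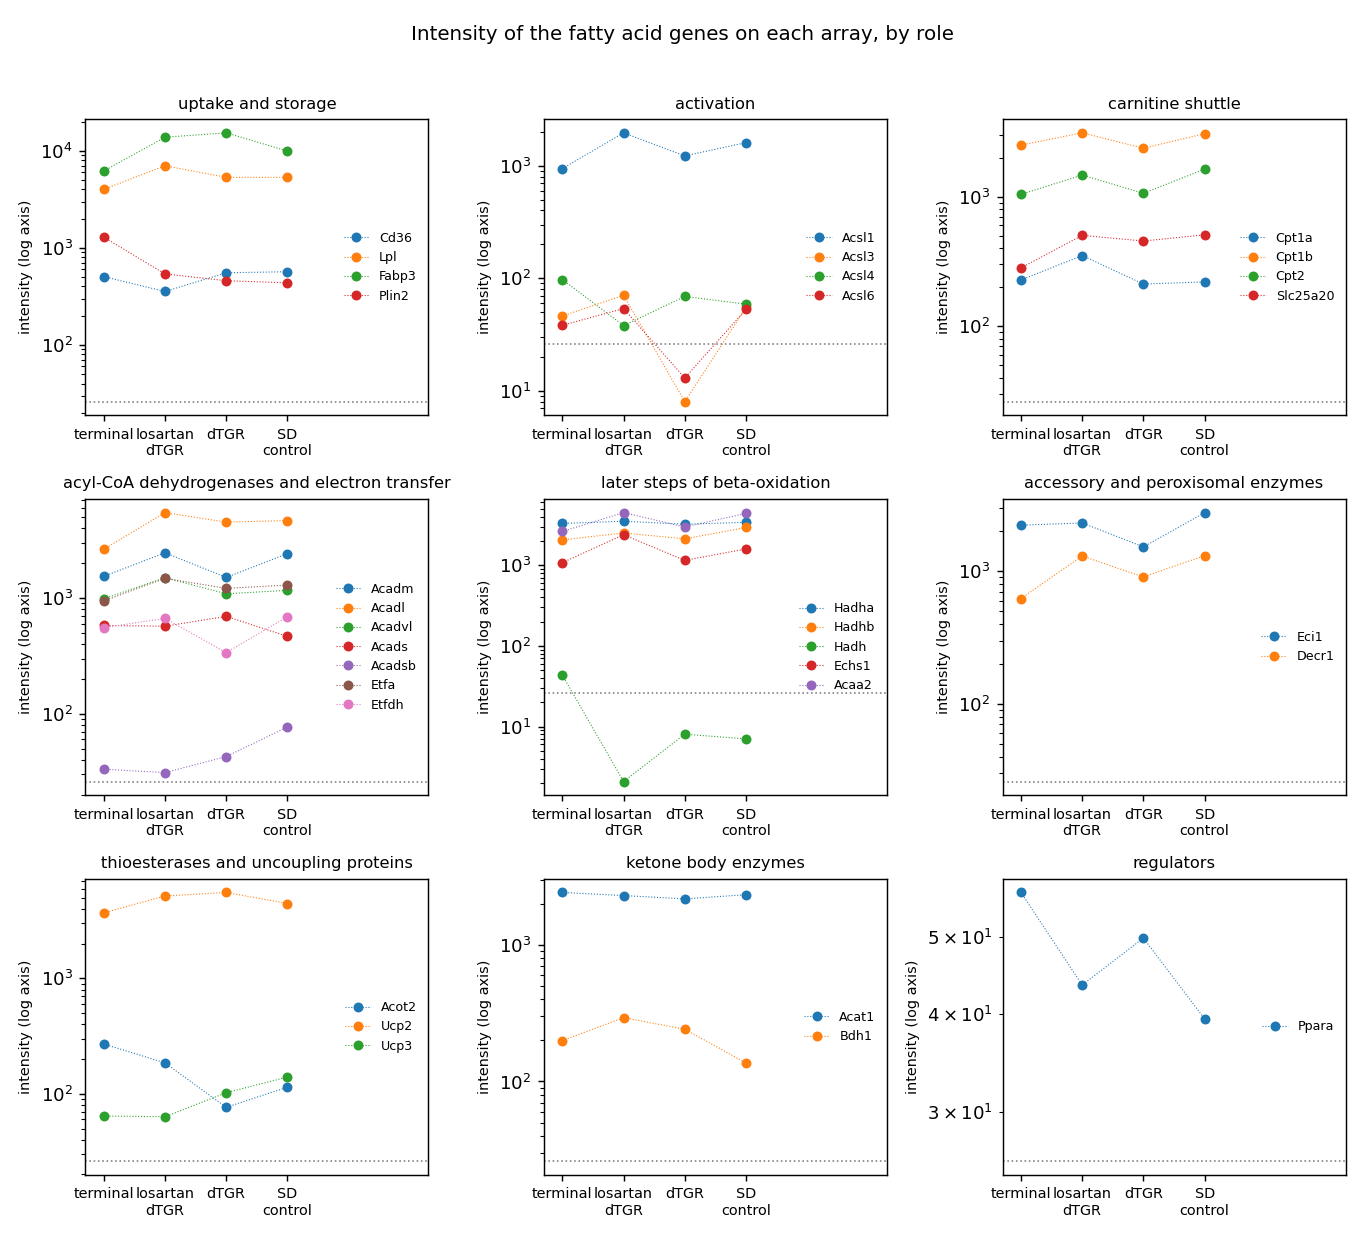
Intensity of each gene on the 4 arrays (log axis), from left to right terminal heart failure, losartan-treated dTGR, dTGR and SD control, in a panel per role. Dotted coloured lines join the points of a gene, the grey line is the floor of 26.0, and Acadm, Cpt2, Acaa2 and Echs1 are low on the terminal and dTGR arrays while Plin2 is high on the terminal array alone.

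The later steps of beta-oxidation showed the order most plainly for Echs1 and Acaa2. Echs1, the short-chain enoyl-CoA hydratase, had 1075 in terminal heart failure, 2387 in losartan-treated dTGR, 1148 in dTGR and 1591 in SD control. The losartan array exceeded all others, 2.08-fold above dTGR and 1.50-fold above SD control. Acaa2, a mitochondrial thiolase of beta-oxidation, had 2620 in terminal heart failure, 4485 in losartan-treated dTGR, 2981 in dTGR and 4393 in SD control. It was 1.68-fold lower in terminal heart failure and 1.47-fold lower in dTGR than in SD control. The subunits of the trifunctional protein differed from each other. Hadha, the alpha subunit, had 3294 in terminal heart failure, 3510 in losartan-treated dTGR, 3220 in dTGR and 3404 in SD control, all within 1.09-fold. Further probe sets of Hadha had log2 differences between terminal heart failure and SD control of 0.41 and -0.86, which leaves its direction unsettled. Hadhb, the beta subunit that shares the printed promoter window, had 2061 in terminal heart failure, 2512 in losartan-treated dTGR, 2122 in dTGR and 2937 in SD control. Hadh, the hydroxyacyl-CoA dehydrogenase of short chains, was above the floor in terminal heart failure alone (43.4), at least 1.67-fold above the other arrays.

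The accessory enzymes deal with double bonds that the main cycle cannot handle. Decr1, the dienoyl-CoA reductase of the mitochondrion, had 622.9 in terminal heart failure, 1303 in losartan-treated dTGR, 904.9 in dTGR and 1311 in SD control. It was 2.10-fold lower in terminal heart failure than in SD control, and the losartan array equalled SD control within 1.01-fold. Its further probe set gave log2 differences from SD control of -0.85 in terminal heart failure, 0.17 in losartan-treated dTGR and -0.63 in dTGR, the same order. Eci1, an enoyl-CoA isomerase, had 2223 in terminal heart failure, 2313 in losartan-treated dTGR, 1527 in dTGR and 2765 in SD control, with the dTGR array lowest. Further probe sets of Eci1 put terminal heart failure 0.76 and 0.29 and dTGR 0.35 and 0.65 below SD control on the log2 scale. Neither kept the order over 4 arrays. On the first, losartan-treated dTGR (1311.5) was below dTGR (1391.5), and on the second losartan-treated dTGR was lowest and under the floor.

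The uncoupling proteins and thioesterases respond to fatty acids in muscle. Ucp3, the muscle uncoupling protein, had 64.2 in terminal heart failure, 63.3 in losartan-treated dTGR, 102.3 in dTGR and 139.7 in SD control. It was 2.18-fold lower in terminal heart failure and 2.21-fold lower in losartan-treated dTGR than in SD control. Its further probe set had 9.07 in terminal heart failure, 70.5 in losartan-treated dTGR, 98.2 in dTGR and 150.1 in SD control, at least 5.77-fold lower in terminal heart failure than in SD control. Ucp2, a relative made in many cell types, macrophages included, had 3699 in terminal heart failure, 5184 in losartan-treated dTGR, 5559 in dTGR and 4459 in SD control, a range of 1.50-fold. A further probe set of Ucp2 had 1021 in terminal heart failure, 542.5 in losartan-treated dTGR, 1820 in dTGR and 1286 in SD control, with losartan-treated dTGR 3.35-fold below dTGR and 2.37-fold below SD control. Acot2, a mitochondrial thioesterase that splits acyl-CoA, had 270.4 in terminal heart failure, 185.5 in losartan-treated dTGR, 76.4 in dTGR and 114.1 in SD control. It was 2.37-fold higher in terminal heart failure than in SD control and 3.54-fold higher than in dTGR. The further probe set of Acot2 had the same direction against SD control in terminal heart failure (0.85) and went the other way in dTGR (1.10). SD control was under the floor on that probe set, so both values are lower bounds. Acot1 is a close relative of Acot2 whose transcript could bind to the same probes, so the values of Acot2 are uncertain.

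Of the ketone body genes, Acat1, the mitochondrial acetoacetyl-CoA thiolase, had 2428 in terminal heart failure, 2304 in losartan-treated dTGR, 2179 in dTGR and 2338 in SD control. Its 2 further probe sets differed more, with log2 differences from SD control of -0.29 and 0.21 in terminal heart failure, -0.58 and 0.39 in losartan-treated dTGR and -0.46 and -0.45 in dTGR. Bdh1, which oxidises beta-hydroxybutyrate, was lowest in SD control, with 199.6 in terminal heart failure, 293.5 in losartan-treated dTGR, 241.6 in dTGR and 136.7 in SD control. Bdh1 was 2.15-fold higher in losartan-treated dTGR than in SD control, the only member that was at least 2-fold higher in that comparison. Ppara, the gene of PPARalpha, had 57.0 in terminal heart failure, 43.5 in losartan-treated dTGR, 49.9 in dTGR and 39.4 in SD control. All these values lie close above the floor, and none differed by 2-fold.

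Set pair by pair, few genes reached 2-fold. Terminal heart failure against SD control had 2 genes at least 2-fold higher (Plin2 and Acot2) and 3 lower (Acadsb, Decr1 and Ucp3) of 32 measured, while 6.38% of all 3371 genes were that much higher, 8.4% lower and 14.8% either. Lower by any amount were 23 of the 32 and higher 9, against 60.1% and 39.9% of all genes, and the median log2 difference was -0.31 for the 32 genes and -0.14 for all genes. In dTGR against SD control, 0 of 31 genes were at least 2-fold higher and 3 lower (Acsl3, Acsl6 and Etfdh), against 7.69% and 5.87% of 3614 genes (13.6% either way). Of the 31, 23 were lower by any amount and 8 higher, against 47.8% and 52.2% of all genes, and the medians were -0.16 and 0.03. Quantile normalization, which makes the spread of intensities on all arrays equal, moved the median of the fatty acid genes in dTGR to -0.34 and scaling to the same median moved it to -0.40, while cyclic loess gave -0.28.

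In losartan-treated dTGR against dTGR, 4 of 31 genes were at least 2-fold higher (Acsl3, Acsl6, Echs1 and Acot2) and 0 lower, against 5.9% and 9.5% of 3644 genes (15.4% either way). For Acsl3 and Acsl6 the dTGR value was under the floor. Further probe sets of Acot2 and Acsl3 went the other way, with log2 differences of -1.10 and -0.73. On that probe set of Acsl3, losartan-treated dTGR was under the floor. Higher by any amount were 23 of 31 and lower 8, against 47.0% and 53.0% of all genes, with medians of 0.29 and -0.05. The median was larger after quantile normalization (0.36), cyclic loess (0.39) and scaling to the same median (0.52), and was 0.15 when a gene was given the median of its probe sets. This comparison shares the dTGR array with the preceding one, so a high or low reading of that array would move both in opposite directions. Against SD control, losartan-treated dTGR had 1 gene at least 2-fold higher (Bdh1) and 2 lower (Acadsb and Ucp3) of 31, against 2.24% and 4.86% of 3394 genes (7.1% either way). Higher by any amount were 20 of these 31 and lower 11, against 49.8% and 50.2% of all genes, and the medians were 0.04 and 0.00.

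Terminal heart failure and losartan-treated dTGR shared a chip lot and a fluidics protocol and were run on different days. Between them, in terminal heart failure, 2 of 32 genes were at least 2-fold higher (Plin2 and Acsl4) and 5 lower (Fabp3, Acsl1, Acadl, Echs1 and Decr1), against 7.44% and 7.35% of 3401 genes (14.8% either way). Lower by any amount were 22 of 32, against 58.2% of all genes and 41.8% higher, with medians of -0.49 and -0.12. After cyclic loess, Echs1 alone of the 5 lower genes stayed past 2-fold, with a median of -0.30. Terminal heart failure against dTGR had 2 genes at least 2-fold higher (Plin2 and Acot2) and 1 lower (Fabp3) of 32, against 7.69% and 11.8% of 3604 genes (19.5% either way). There 18 of 32 genes were lower by any amount, close to the share of all genes (60%, with 40% higher), and the median of -0.07 changed sign with the scaling, to 0.22 with the same median on every array and 0.083 after cyclic loess.

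**Figure D3:**
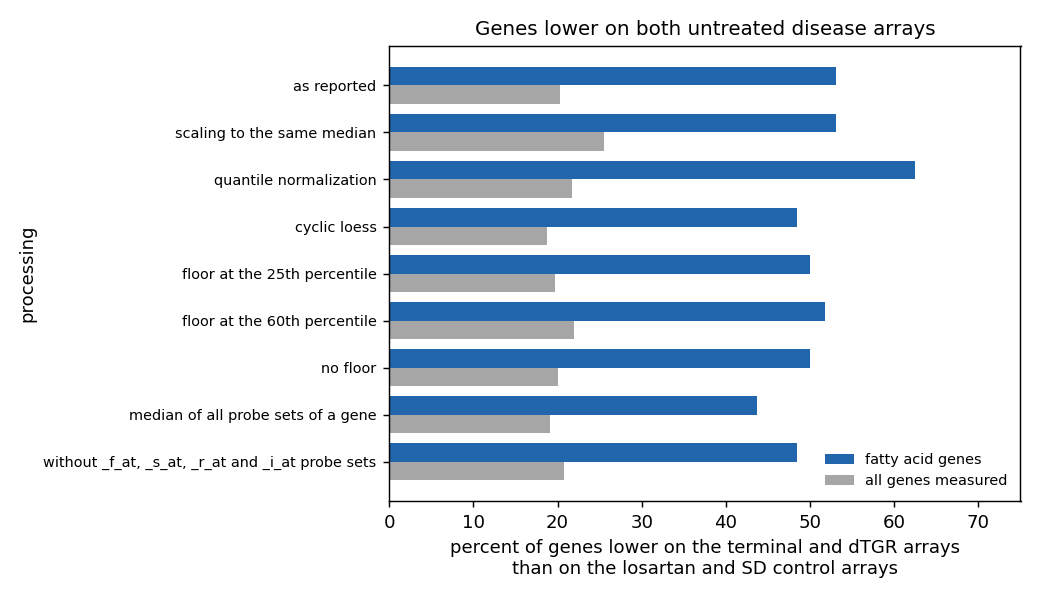
Percent of genes that were lower on both the terminal and the dTGR array than on both the losartan and the SD control array (horizontal axis), for the fatty acid genes and all genes measured, under each way of processing (vertical axis). The bar of the fatty acid genes is longer than that of all genes under each of the 9 settings.

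Agreement between probe sets of the same gene gives the only internal measure of error. In terminal heart failure against SD control, 19 of 21 further probe sets of the members had the sign of the probe set used, in dTGR against SD control 16 of 23, and in losartan-treated dTGR against dTGR 15 of 23. The sign was shared by 13 of 23 in terminal heart failure against dTGR, 13 of 21 in losartan-treated dTGR against SD control and 15 of 21 in terminal heart failure against losartan-treated dTGR. The spread between probe sets of 1 gene, over all genes above the floor on both arrays, had an SD of 0.51, 0.53 and 0.60 on the log2 scale in the first 3 of these comparisons. Differences larger than that SD were found for 17 of 32 fatty acid genes in terminal heart failure, 13 of 31 in dTGR and 12 of 31 in losartan-treated dTGR against dTGR, so many single differences given above lie within the spread. Of all genes measured, 41.9% in terminal heart failure against SD control, 38.7% in dTGR against SD control and 38.1% in losartan-treated dTGR against dTGR differed by more than that SD. Probe sets of 1 gene are read from the same array and RNA, so their agreement does not stand for other animals.

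**Figure D4:**
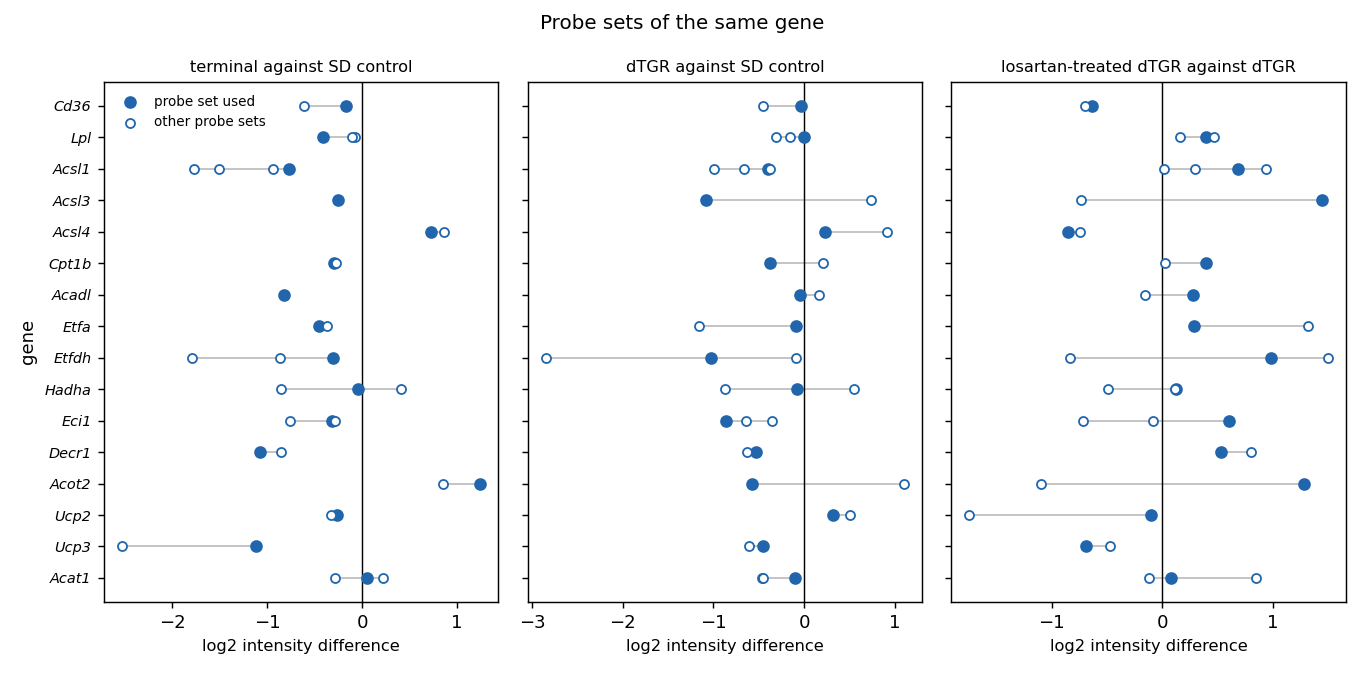
Log2 intensity differences of every probe set above the floor on at least 1 array (horizontal axes), for the 16 genes with 2 or more of them, in 3 comparisons. Filled points are the probe sets used and open points the others, and the probe sets of Acsl1 and Decr1 lie left of 0 in both comparisons with SD control while those of Hadha and Acot2 lie on both sides in dTGR.

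Of the other genes of fatty acid metabolism, 42 of a list of 61 had a probe set. In terminal heart failure, 2 of the 35 measured were at least 2-fold higher than in SD control (Pdk4 and Lipe) and 4 lower (Ppard, Rxrg, Vldlr and Mgll), with a median of -0.23. Of all genes, 6.38% were that much higher and 8.4% lower. In dTGR, 3 of 37 were higher (Lipe, Pccb and Pex11a) and 3 lower (Rxrg, Acacb and Vldlr), with a median of -0.18, against 7.69% and 5.87% of all genes. Pex11a was under the floor in SD control, and its further probe set was under the floor in both dTGR and SD control. Values near the floor entered for Pccb (38.6 in SD control) and Acacb (41.3 in dTGR). In losartan-treated dTGR against dTGR, 4 of 37 were higher (Rxrg, Vldlr, Abcd3 and Lipa) and 2 lower (Pdk4 and Pccb), against 5.9% and 9.5% of all genes. Pccb was under the floor in losartan-treated dTGR. Rxrg, a retinoid X receptor that pairs with PPARalpha, had 364.7 in terminal heart failure, 996.6 in losartan-treated dTGR, 381.8 in dTGR and 1019 in SD control, so that the untreated disease arrays were well apart from the others. Its 2 further probe sets had the same order, with 55.6 and 27.1 in terminal heart failure, 97.5 and 101.4 in losartan-treated dTGR, 76.7 and 38.2 in dTGR and 92.9 and 155.3 in SD control. Vldlr, the receptor for very-low-density lipoprotein, had 76.2 in terminal heart failure, 153.6 in losartan-treated dTGR, 76.6 in dTGR and 155.0 in SD control, in the same 2 pairs. Pdk4, which shuts off pyruvate dehydrogenase and is induced by PPARs and glucocorticoids, was high in terminal heart failure alone, at 447.7, against 29.0 in losartan-treated dTGR, 80.7 in dTGR and 116.6 in SD control. Lipe, hormone-sensitive lipase, was lowest in SD control on the probe set used, with 672.2 in terminal heart failure, 452.8 in losartan-treated dTGR, 589.9 in dTGR and 153.3 in SD control. A further probe set of Lipe had 153.8 in terminal heart failure, 45.4 in losartan-treated dTGR, 115.6 in dTGR and 135.9 in SD control and did not share that order.

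Neighbouring mitochondrial pathways were read beside these genes. In terminal heart failure, the median log2 difference from SD control was -0.39 for 10 tricarboxylic acid cycle genes and -0.29 for 26 respiratory chain genes, beside -0.31 for the fatty acid genes. In dTGR the medians were -0.17 and 0.25, beside -0.16, and after quantile normalization -0.29 and -0.14, beside -0.34. After cyclic loess they were -0.29 and 0.008, beside -0.28. With the same median on every array they were -0.41 and 0.01, beside -0.40. Lower on both untreated disease arrays than on both others were 4 of 10 tricarboxylic acid cycle genes and 5 of 26 respiratory chain genes, beside 13 of 37 other fatty acid genes, 17 of 32 of the genes described here and 20.3% of all genes. The 11 cardiomyocyte markers had a median of -0.19 in terminal heart failure and 0.90 in dTGR against SD control. In dTGR their median was -0.10 after quantile normalization, 0.33 after cyclic loess and 0.66 with the same median on every array. Their summed intensity was 108143 in terminal heart failure, 152307 in losartan-treated dTGR, 218773 in dTGR and 116534 in SD control. Adipocyte markers were read because fat around the heart makes Lpl, Cd36 and Plin2 too. Of 5 such markers, Lipe was 4.38-fold, Cfd 2.38-fold and Fabp4 1.81-fold higher in terminal heart failure than in SD control, Lep was 1.44-fold lower, and Plin1, a defining marker, was under the floor on every array. The summed intensity of the 5 markers was 2139 in terminal heart failure, 1840 in losartan-treated dTGR, 1885 in dTGR and 1424 in SD control, and their part in the values of Lpl, Cd36 and Plin2 was not tested.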

How the data were processed

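The authors deposited linear intensities, a single value for each probe set on each array, and the instrument records, per the file headers, give the chip type RG_U34A, the chip lot and the fluidics protocol as text. The sources used here do not give the software, detection calls or pooling of RNA. Arrays had been brought to a common level before deposit (means without the lowest and highest 2% were 200.2 to 200.3), and scaling factors were 1.00. Of values between 1 and 32, 89.2% had a 0 as the first decimal and another digit as the second (as in 8.01), against 0.0% of those between 32 and 100, the form a spreadsheet's day and month would give, so low values may be slightly off. Left out of the 8799 probe sets were 59 controls, 308 that name several genes and 1426 that name none; the other 7006 cover 4736 genes. All 60 probe sets of the members matched the rat gene table (GRCr8). Probe set names ending in _s_at mark sequences that may be shared between transcripts. Values were set to a floor at the 40th percentile (26.0), log2 was taken, and a comparison took in each gene that exceeded the floor on either array. Folds against a value under the floor are lower bounds. Computation used Python 3.11.15, numpy 2.4.6, pandas 2.3.3, scipy 1.17.1, R 4.3.3 and limma 3.58.1 for cyclic loess, and was tested on simulated data. The 6 comparisons, 8 alternatives and gene lists were written down with earlier results of these data known, as were the members, and the order over 4 arrays, the list medians under other scalings and the motifs were added after seeing the data. Intensities on all arrays are given for members at least 2-fold different in any comparison, for the highest 2 of each role and for a fixed set, and values of Hadhb, Acads, Etfa, Slc25a20 and Hadh were added after they were seen.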

Additional observations from a re-analysis of the deposited data

How the results depend on the processing

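Of 152 values recomputed under an alternative (6 comparisons with the count of genes past 2-fold, the count lower by any amount and the median, and the order over 4 arrays), 129 kept their size, 21 moved and 2 changed sign. A median counted as moved beyond the SD between probe sets divided by the root of the number of genes, a count beyond 1.5 times. In terminal heart failure against SD control, cyclic loess gave a median of -0.22. In dTGR against SD control, the genes past 2-fold were 5 with the same median on every array and 1 each with cyclic loess, the 60th percentile floor and the median of all probe sets, and the medians were -0.40 (same median), -0.34 (quantile) and -0.28 (cyclic loess). In losartan-treated dTGR against dTGR, genes lower by any amount were 5 with the same median or quantile normalization, genes past 2-fold were 2 with the 60th percentile floor or the median of all probe sets, and the medians were 0.52 (same median) and 0.15 (median of all probe sets). In terminal heart failure against dTGR, 10 genes were lower with the same median, the median log2 difference turned to 0.22 with it and to 0.083 with cyclic loess, and 6 genes were past 2-fold with the 25th percentile floor and 7 with no floor. In terminal heart failure against losartan-treated dTGR, 4 genes were past 2-fold with cyclic loess or the median of all probe sets, with medians of -0.30 and -0.36. The cause was not tested. The order over 4 arrays held for 14 to 20 genes. Of 25 single differences past 2-fold, 0 changed sign, and 14 stayed past 2-fold with the median of all probe sets and 16 with cyclic loess. No paired analysis was possible because each group has 1 array.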

Other observations

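Abcd3, a peroxisomal fatty acid transporter, had 281.8 in terminal heart failure, 1836 in losartan-treated dTGR, 249.6 in dTGR and 225.3 in SD control, while a further probe set had 245.2 in terminal heart failure, 169.2 in losartan-treated dTGR, 273.8 in dTGR and 362.3 in SD control. Mgll, which splits monoglycerides, had 148.7 in terminal heart failure, 185.2 in losartan-treated dTGR, 283.2 in dTGR and 433.4 in SD control. Of 9 fatty acid synthesis genes with a probe set, 6 were measured in terminal heart failure against SD control, with 0 at least 2-fold higher and 0 lower (all genes 6.38% and 8.4%) and a median log2 difference of -0.43. In dTGR against SD control, 2 of 7 were at least 2-fold higher and 0 lower (all genes 7.69% and 5.87%), with a median of -0.31. In losartan-treated dTGR against dTGR, 1 of 7 was higher and 2 lower (all genes 5.9% and 9.5%), with a median of -0.16.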
